A study of Mus musculus with 9 samples.

Results

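Histone cluster genes are the genes of the Hist1 to Hist4 clusters, and they were followed in fetal mouse pulmonary lymphatic endothelial cells (PLECs) over the last days before birth. Every gene of the deposited table whose symbol starts with Hist1, Hist2, Hist3 or Hist4 was taken, in its older or its current form, and pseudogenes were left out by name, which removed 2 genes. This gave 38 members among 25206 genes. By type they were 5 linker histone H1 genes, 10 H2A genes, 12 H2B genes, 7 H3 genes and 4 H4 genes. The mouse RefSeq annotation lists 68 such genes, and the other 30 were not analysed here. Of the members, 29 lie in the Hist1 cluster on chromosome 13, 6 in Hist2 on chromosome 3, 2 in Hist3 on chromosome 11 and 1 in Hist4 on chromosome 6.

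PLECs came from lungs of C57BL/6NCrl fetuses, sorted as CD31+/Vegfr3+/Lyve1+/Pdpn+ and negative for CD45 and Epcam, at embryonic days E16.5, E17.5 and E18.5. All 3 groups shared this strain and sort, and day is the only difference between them that the labels give. There were 3 samples a day, each a pool of lungs from 2 litters, so each day came from its own litters. Each sample's total RNA was measured on 1 Mouse Gene 2.0 ST array after labelling with the WT Plus kit. Values are log2 RMA values, a background-corrected and quantile-normalized signal per gene, and a difference of 1 is a change of 2-fold.

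Histones are the proteins around which DNA is wound. H2A, H2B, H3 and H4 build the nucleosome core, and H1 binds the linker DNA between nucleosomes. Most genes of the clusters are copied into RNA during S phase, when new DNA has to be packaged, and their mRNAs typically end in a conserved stem-loop in place of a poly(A) tail. Replacement histones such as H3f3b, which lie outside the clusters, are made throughout the cell cycle as polyadenylated mRNAs. In dividing cells, cluster histone mRNA is therefore commonly read as a marker of S phase, although some cluster genes also give polyadenylated mRNA in cells that have stopped dividing.

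The upstream stretches of the 8 members that fell from E16.5 to E18.5, of Hist1h2aa, which rose, and of the H4 gene Hist1h4k are shown because the members of a type share letters there. Each is the 150 bases just before the annotated start, read 5′ to 3′ toward the gene, from RefSeq (GRCm38.p6). Capitals mark 5 motifs on either strand: CCAAT (reverse ATTGG), the octamer ATTTGCAT (reverse ATGCAAAT), TATAAA (reverse TTTATA), the H1 box AAACACA and the E2F-type site TTTCGCGC.
Hist1h2ag (chr13:22042950-22043099, minus strand): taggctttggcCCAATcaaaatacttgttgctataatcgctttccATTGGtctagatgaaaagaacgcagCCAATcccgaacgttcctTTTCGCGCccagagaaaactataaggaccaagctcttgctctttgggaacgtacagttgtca
Hist1h2an (chr13:21787249-21787398, minus strand): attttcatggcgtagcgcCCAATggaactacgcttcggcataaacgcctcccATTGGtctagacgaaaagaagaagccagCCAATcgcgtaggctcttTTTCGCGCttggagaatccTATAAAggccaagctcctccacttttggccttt
Hist1h2af (chr13:23533725-23533874, plus strand): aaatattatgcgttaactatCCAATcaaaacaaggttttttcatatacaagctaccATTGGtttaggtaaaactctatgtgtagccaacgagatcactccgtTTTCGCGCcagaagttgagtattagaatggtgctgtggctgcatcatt
Hist1h2ab (chr13:23750938-23751087, plus strand): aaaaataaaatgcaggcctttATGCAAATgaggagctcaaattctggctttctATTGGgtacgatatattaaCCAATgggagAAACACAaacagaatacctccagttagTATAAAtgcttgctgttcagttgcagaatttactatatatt
Hist1h2aa (chr13:23934287-23934436, plus strand): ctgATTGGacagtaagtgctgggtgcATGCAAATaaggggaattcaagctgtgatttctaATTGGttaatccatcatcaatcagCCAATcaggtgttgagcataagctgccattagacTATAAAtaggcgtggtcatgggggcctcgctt
Hist1h2bf (chr13:23574208-23574357, minus strand): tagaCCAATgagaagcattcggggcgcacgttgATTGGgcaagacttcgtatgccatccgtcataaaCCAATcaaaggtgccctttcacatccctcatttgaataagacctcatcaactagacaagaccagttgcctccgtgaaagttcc
Hist1h2bn (chr13:21753926-21754075, plus strand): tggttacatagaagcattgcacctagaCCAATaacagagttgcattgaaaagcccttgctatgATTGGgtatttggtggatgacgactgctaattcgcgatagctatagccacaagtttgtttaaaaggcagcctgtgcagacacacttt
Hist1h2bl (chr13:21716184-21716333, minus strand): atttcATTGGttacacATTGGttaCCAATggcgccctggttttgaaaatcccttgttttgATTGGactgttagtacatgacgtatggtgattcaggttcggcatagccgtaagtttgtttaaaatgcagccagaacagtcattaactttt
Hist1h1a (chr13:23763518-23763667, plus strand): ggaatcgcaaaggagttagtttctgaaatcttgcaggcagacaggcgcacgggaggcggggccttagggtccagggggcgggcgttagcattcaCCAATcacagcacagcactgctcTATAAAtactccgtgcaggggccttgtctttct
Hist1h4k (chr13:21750554-21750703, minus strand): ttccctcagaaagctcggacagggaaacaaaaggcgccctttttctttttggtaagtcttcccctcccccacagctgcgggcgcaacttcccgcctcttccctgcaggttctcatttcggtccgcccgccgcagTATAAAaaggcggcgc

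CCAAT was the motif that most members held. RefSeq promoter windows, 250 bases before to 50 after the start, were at hand for 34 of the 38 members, and 4 (Hist2h2be, Hist1h2bc, Hist1h3f and Hist1h3a) had none in the table. CCAAT, the site of the factor NF-Y, was in the windows of 5 of 5 H1, 10 of 10 H2A, 10 of 10 H2B and 5 of 5 H3 genes, and in 0 of 4 H4 genes, beside 37.4% of all 32851 promoter windows of the same length. H2A genes held 2 to 5 copies, H2B genes 2 to 6 and H1 genes 1 each. The 6 were in Hist1h2be, where matches of more than 1 window were added together. In the H3 genes Hist2h3c2 and Hist2h3c1 the only match began 15 and 30 bases after the start. The octamer, which Oct1 (Pou2f1) binds, was in 6 H2A and 5 H2B windows and in no H1, H3 or H4 window, beside 1.74% of all. Among the 8 members that fell it was in 1, Hist1h2ab. Windows of neighbouring genes overlap, so Hist1h2aa and Hist1h2ba were counted for the same octamer, as were Hist1h2ae and Hist1h2bg. The E2F-type site was in 5 member windows, beside 0.323% of all, and 4 of them belong to members that fell. It began 62 bases before the start in Hist1h2ag, 52 in Hist1h2an, 48 in Hist1h2af and 192 in Hist1h2bf, the last outside the stretch shown. The fifth was Hist1h2bp, whose signal was too low to be tested. Hist1h2bp lies 234 bases from Hist1h2an on the opposite strand, and both were counted for the same E2F-type site. The H1 box was in 4 of 5 H1 windows, 112 to 122 bases before the start, and Hist1h1a, the H1 gene that fell, was the one without it, beside 7.18% of all windows. TATAAA was in 21 of the 34, beside 13.6% of all. The motifs were searched after the changes were known, and a match is a description of the letters, not of binding.

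Of the 38 members, 27 exceeded the median signal of 1 or more arrays and were tested, 18 of them on all 9. The array medians ran from 3.79 to 3.91. The 11 members that did not pass were Hist1h1t, Hist1h2ae, Hist3h2ba, Hist1h2bp, Hist1h2ba, Hist2h3c2, Hist1h3i, Hist1h3g, Hist1h3f, Hist1h3a and Hist1h4h, with values from 0.70 to 3.06. Hist1h1t and Hist1h2ba encode histones known from male germ cells. Members of one type have closely similar coding sequences, so probes of one gene can also bind RNA of another, and single genes are uncertain to that extent. RefSeq lists Hist1h2bf, Hist1h2bl and Hist1h2bn under each other's symbols, likewise Hist1h2bc, Hist1h2be and Hist1h2bg, and all 4 H4 genes.

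Between E16.5 and E18.5, 8 of the 27 tested members fell and 1 was called higher, at a Benjamini-Hochberg FDR q under 0.05 in limma over 14096 genes. Over all genes tested, 6.21% were called lower and 3.77% higher in this comparison. Those that fell were 1 H1 gene (Hist1h1a), 4 H2A genes (Hist1h2ag, Hist1h2ab, Hist1h2an and Hist1h2af) and 3 H2B genes (Hist1h2bf, Hist1h2bn and Hist1h2bl), all in the Hist1 cluster. Their falls ran from 2.02-fold to 5.70-fold. The one called higher was the H2A gene Hist1h2aa, which was admitted to the test through E17.5 and E18.5 samples alone. At an unadjusted p under 0.05 the counts were 15 lower and 3 higher, beside 16.9% and 11.1% of all genes tested. None of the 2 tested H3 genes and none of the 3 tested H4 genes passed limma's test, with 0 H3 and 2 H4 genes lower at an unadjusted p under 0.05. The ordinary test without moderation called 0 lower and 0 higher over all genes tested, so it cannot tell these types from the others. The members tested had a median log2 change of -0.52 and all 38 a median of -0.32, beside -0.04 over all genes tested. The 3 E18.5 samples all lay below the 3 E16.5 samples for 14 of the 27, beside 18.3% of all genes tested, and all above them for 2, beside 11.9%. Over the 3 days together 7 members changed by the moderated F test, beside 9.09% of all genes, and these were the 8 that fell without Hist1h1a (q = 0.058).

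**Figure D1:**
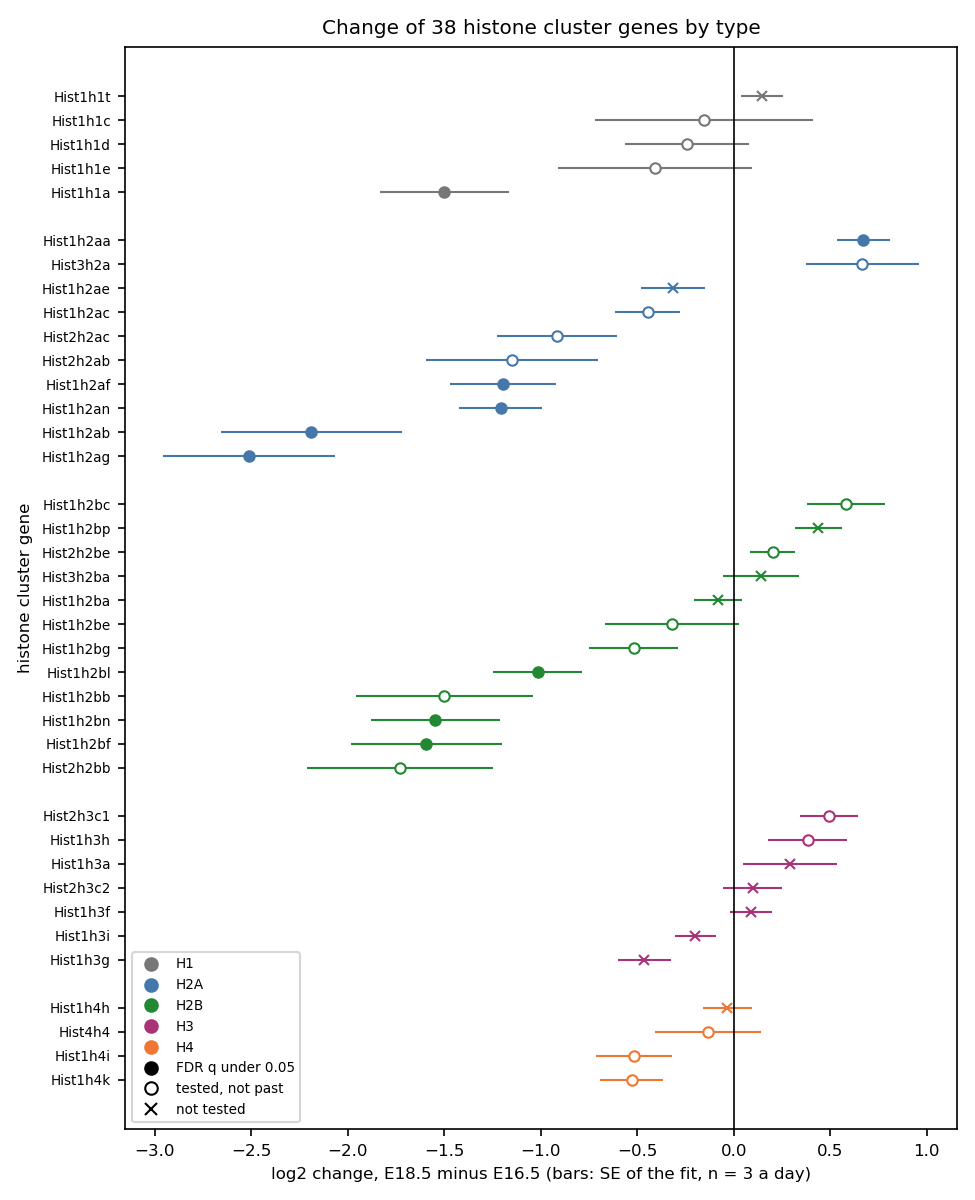
Log2 change from E16.5 to E18.5 of all 38 histone cluster genes by type, with the SE of the limma fit as bars (n = 3 samples a day). Filled circles passed an FDR q under 0.05, open circles were tested and did not pass, and crosses were not tested. Filled points to the left are in H1, H2A and H2B, and both tested H3 genes lie to the right of 0.

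The count of 8 rested on single samples. Leaving out E18.5 replicate 3 raised it to 14 of 27, with all 8 among them, and added Hist1h1e, Hist2h2ab, Hist2h2ac, Hist1h2bb, Hist1h2bg and Hist2h2bb. Without that sample, Hist1h1e was above the array median in E16.5 samples alone. Leaving out E18.5 replicate 1 or any 1 of the 3 E16.5 samples lowered the count to 0, and leaving out E18.5 replicate 2 lowered it to 1 (Hist1h2af). All 8 members remained lower in each of these fits. The calls over all genes tested moved too. They were 4.48% lower without E18.5 replicate 3, 3.34% and 2.97% without E18.5 replicates 1 and 2, and 2.30%, 2.52% and 1.54% without E16.5 replicates 1, 2 and 3, beside 6.21% with all samples.

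The largest falls were in the H2A genes Hist1h2ag and Hist1h2ab. Hist1h2ag (H2ac11) measured 8.36, 7.47 and 8.16 at E16.5, then 7.17, 7.73 and 7.03 at E17.5, and 5.22, 4.76 and 6.48 at E18.5. Every E18.5 sample lay below every earlier sample. The log2 change was -2.51 ± 0.45 (SE, n = 3 a day), a 5.70-fold fall (q = 0.018). Among all 14096 genes tested no change was more negative.

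Hist1h2ab (H2ac4), whose upstream stretch holds the octamer, measured 10.53, 9.95 and 10.67 at E16.5. It measured 9.42, 10.23 and 9.07 at E17.5, and 7.85, 7.42 and 9.31 at E18.5. E18.5 replicate 3 stood well above the other samples of its day and within the E17.5 range, while all E18.5 samples were below all E16.5 samples. The log2 change was -2.19 ± 0.47 (q = 0.033).

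Hist1h2an and Hist1h2af, both core H2A genes with the E2F-type site, changed alike in size. Hist1h2an (H2ac22) had 11.65, 11.47 and 11.64 at E16.5, 11.11, 11.52 and 10.96 at E17.5, and 10.25, 10.02 and 10.86 at E18.5. Hist1h2af (H2ac10) had 11.03, 10.90 and 11.04 at E16.5, 10.47, 11.00 and 10.52 at E17.5, and 9.88, 9.17 and 10.34 at E18.5. In both genes the E16.5 samples were close together and the E18.5 samples were spread more widely, with no overlap between these days. The changes were -1.21 ± 0.21 (q = 0.018) and -1.20 ± 0.27 (q = 0.040).

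The other H2A genes did not pass the test, with 1 exception. Hist2h2ab, of the Hist2 cluster, had a change of -1.15 ± 0.45 (q = 0.15), and its neighbour Hist2h2ac one of -0.92 ± 0.31 (q = 0.11). In both, E18.5 replicate 3 was the E18.5 sample closest to the E16.5 values, with 6.83 for Hist2h2ab beside 5.44 and 5.19 in the other E18.5 samples. Hist1h2ac had a change of -0.45 (q = 0.14), and Hist3h2a, above the array median on 1 array, one of 0.67 (q = 0.19). Hist1h2aa (H2ac1), which encodes an H2A form best known from testis, was the exception. It measured 3.24, 3.46 and 3.24 at E16.5, 3.29, 4.36 and 3.73 at E17.5, and 3.77, 4.14 and 4.05 at E18.5. All E18.5 samples lay above all E16.5 samples, by 0.67 ± 0.14 (q = 0.028). It passed the filter only through E17.5 replicate 2 and E18.5 replicates 2 and 3, and at E16.5 it was under the median of each array, which leaves the size of the difference uncertain. The call was lost in the fit on all 9 arrays (q = 0.086) and with a second quantile normalization (q = 0.051).

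The 3 H2B genes that fell were the 3 that RefSeq lists under each other's symbols. Hist1h2bf (H2bc7) measured 10.67, 10.51 and 10.66 at E16.5, 9.82, 10.46 and 9.80 at E17.5, and 8.98, 8.16 and 9.91 at E18.5. Hist1h2bn (H2bc15) measured 8.85, 8.38 and 9.40 at E16.5, 8.17, 8.98 and 8.13 at E17.5, and 7.33, 6.79 and 7.86 at E18.5. Hist1h2bl (H2bc13) measured 11.56, 11.66 and 11.61 at E16.5, 11.24, 11.61 and 11.19 at E17.5, and 10.64, 10.09 and 11.05 at E18.5. In each of them E18.5 replicate 2 was the lowest of all 9 samples and the E16.5 and E18.5 samples did not overlap. The log2 changes were -1.59 ± 0.39 (q = 0.048), -1.55 ± 0.33 (q = 0.033) and -1.01 ± 0.23 (q = 0.039).

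A pair of H2B genes had differences of the same size that did not pass. Hist2h2bb (H2bc18) measured 7.90, 7.24 and 8.16 at E16.5, 6.74, 7.83 and 7.01 at E17.5, and 5.85, 5.17 and 7.10 at E18.5. Its change was -1.73 ± 0.48 (q = 0.068), and the q was 0.034 in the fit on all 9 arrays. Hist1h2bb had a change of -1.50 ± 0.46 (q = 0.088). In both genes the E16.5 and E18.5 samples did not overlap, and E18.5 replicate 3 was the highest of its day.

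The remaining H2B genes stayed closer to their E16.5 values. Of the 3 genes of the second group that RefSeq lists together, Hist1h2bg had a change of -0.52 (q = 0.19), Hist1h2be one of -0.32 (q = 0.57) and Hist1h2bc one of 0.58 ± 0.20 (unadjusted p = 0.023, q = 0.12). Hist1h2bc measured 9.35, 8.83 and 8.91 at E16.5, 9.10, 9.19 and 9.42 at E17.5, and 9.64, 9.29 and 9.90 at E18.5, so its first and last day overlapped by 1 sample. Hist2h2be had a change of 0.20 (q = 0.30). Annotated spans exceed 1000 bases in 4 members, all H2B genes. They are Hist1h2be with 37455 bases, Hist1h2bp with 14079, Hist1h2bc with 8282 and Hist2h2be with 2667. The other members span 403 to 903 bases. None of the 3 long-span genes that were tested fell, whereas the 6 other tested H2B genes had changes from -1.73 to -0.52 and 3 of them fell. This split was made after the values were seen and has no test.

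**Figure D2:**
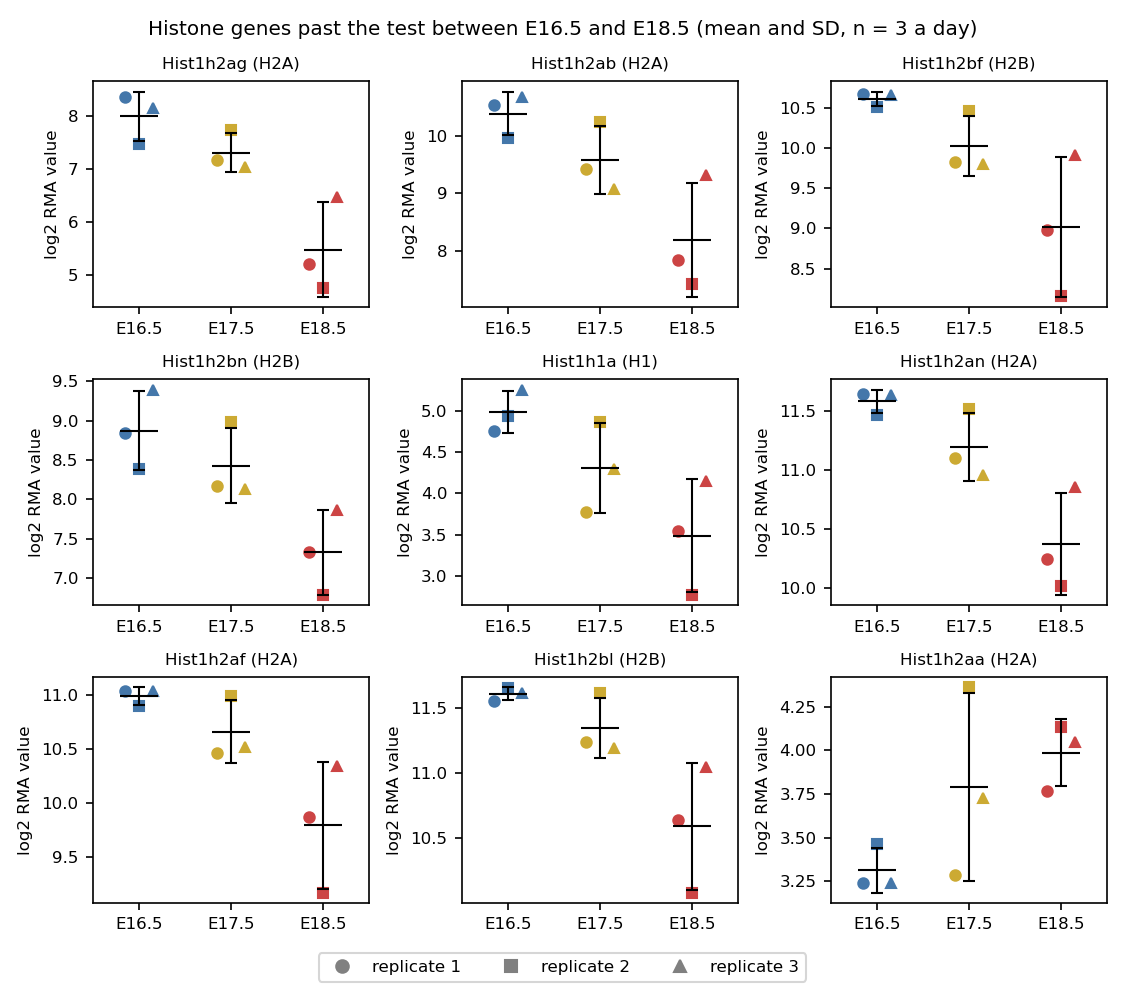
Log2 RMA value (vertical axes, which differ between panels and do not start at 0) of the 9 members past the test, in each sample by day, with the mean and SD of each day (n = 3). In the 8 members that fell, E17.5 replicate 2 and E18.5 replicate 3 are the highest samples of their days, and in Hist1h2aa the E18.5 samples lie above the E16.5 samples.

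All 4 tested linker histone genes had a negative change, and 1 passed the test. In all 4, replicate 2 was the highest and replicate 1 the lowest E17.5 sample, and replicate 3 was the highest and replicate 2 the lowest E18.5 sample. Hist1h1a (H1f1) measured 4.76, 4.94 and 5.26 at E16.5, 3.77, 4.87 and 4.30 at E17.5, and 3.55, 2.77 and 4.15 at E18.5. Its days E16.5 and E18.5 did not overlap, and the change was -1.50 ± 0.33 (q = 0.037). In 2 E18.5 samples its value was below the array median, so the size of this fall is uncertain.

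Hist1h1c (H1f2) measured 7.90, 7.15 and 7.85 at E16.5, 7.36, 7.60 and 7.53 at E17.5, and 7.33, 6.35 and 8.76 at E18.5. Both its highest and its lowest value came from E18.5, and the change was -0.15 ± 0.56 (q = 0.88). Hist1h1e, with 2.86, 2.82 and 4.77 at E18.5 beside 3.65 to 4.10 at E16.5, had the same form, with a change of -0.41 ± 0.50 (q = 0.62). Without E18.5 replicate 3 the change of Hist1h1e was -1.05 (q = 0.020) and that of Hist1h1c -0.79 (q = 0.22). In that fit Hist1h1e was above the array median in E16.5 replicates 1 and 3 alone. Its E18.5 values of 2.86 and 2.82 were below the array median, so the size of this change is uncertain. Hist1h1d had a change of -0.24 ± 0.32 (q = 0.65).

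H3 genes gave little signal. Of 7 measured, Hist2h3c1 and Hist1h3h were tested. Hist2h3c1 (H3c14) measured 3.86, 3.45 and 3.64 at E16.5, 3.71, 2.91 and 3.89 at E17.5, and 4.32, 4.16 and 3.95 at E18.5. The E18.5 samples lay above the E16.5 samples, by 0.49 ± 0.15 (unadjusted p = 0.014, q = 0.088). Hist1h3h had a change of 0.38 ± 0.20 (q = 0.26). The other 5 H3 genes had values from 0.70 to 2.64, below the median of every array.

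Of the 3 tested H4 genes, all had a negative change that did not pass the test. Hist1h4k (H4c12), whose window has no CCAAT, measured 8.50, 8.04 and 8.49 at E16.5, 7.96, 8.34 and 8.11 at E17.5, and 7.81, 7.64 and 7.996 at E18.5. The change was -0.53 ± 0.17 (q = 0.092). Hist1h4i had a change of -0.52 ± 0.20 (q = 0.14), and both genes had no overlap between E16.5 and E18.5. Hist4h4 had a change of -0.13 ± 0.27 (q = 0.78).

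No member passed limma's test between adjacent days. From E16.5 to E17.5, 0 of 27 were called lower and 0 higher, beside 0.149% and 0% of all genes tested, and at an unadjusted p under 0.05 the count was 1 lower (Hist1h4i, -0.68) and 0 higher, beside 9.27% and 5.44%. From E17.5 to E18.5, 0 were called lower and 0 higher, beside 0.717% and 1.18%, and at an unadjusted p under 0.05 the counts were 11 and 2, beside 9.04% and 8.56%. Without E18.5 replicate 3, 10 of the 27 were called lower in this step, beside 1.55% of all genes tested. The ordinary test without moderation called 0 members in either step, and over all genes tested it called 0 lower from E17.5 to E18.5. For the 8 members that fell over the whole interval, E17.5 means lay between those of the other days. Their first step had a median of -0.52 and their second one of -0.94, and the second was the larger in all 8. The difference between both steps passed limma's test for 0 of the 27 members, beside 0% of all genes, and at an unadjusted p under 0.05 for 0, beside 3.48% with a more negative and 4.63% with a more positive second step. The smallest q among the 8 was 0.70.

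Histone members differed between the samples of a day more than most genes did. At E18.5 their median within-day SD was 0.54, beside 0.21 over all genes tested, and at E17.5 it was 0.37 beside 0.17. At E18.5, replicate 3 was the highest of the 3 samples for 23 of the 27 and replicate 2 the lowest for 24, beside 36.7% and 36.1% of all genes tested. At E17.5, replicate 2 was the highest for 23, beside 36.4%. At E16.5, replicate 2 was the lowest for 19, beside 37.9%. The 23 at E18.5 stayed 23 when arrays were centred on their medians or quantile normalized again, and the 23 at E17.5 became 22. The genes are not independent of each other, since members of a type share sequence and all were read from the same samples.

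The same samples were set against 3 comparison lists. Of 18 replication genes, replicate 3 was the highest E18.5 sample for 12, replicate 2 the lowest for 14, and E17.5 replicate 2 the highest for 4. The 12 became 11 with a second quantile normalization and 13 with arrays centred, the 14 stayed 14 in both, and the 4 became 8 and 2. Of 101 RNAs without a poly(A) tail (small nucleolar and other structural RNAs), E17.5 replicate 2 was the highest of its day for 101, E16.5 replicate 3 for 89 and E18.5 replicate 3 for 52. E16.5 replicate 2 was the lowest of its day for 98 of these RNAs. Their values move with the histone members at E17.5 and in E16.5 replicate 2, and their part in the histone differences was not tested. Of 9 tested histone genes outside the clusters, replicate 3 was the highest E18.5 sample for 6 and replicate 2 the lowest for 7. E16.5 replicate 2 was the lowest of its day for 7 of these genes, and E17.5 replicate 2 the highest for 4. Among them the replacement linker histone H1f0 measured 8.96 in E18.5 replicate 3, beside 7.92 and 6.75.

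**Figure D3:**
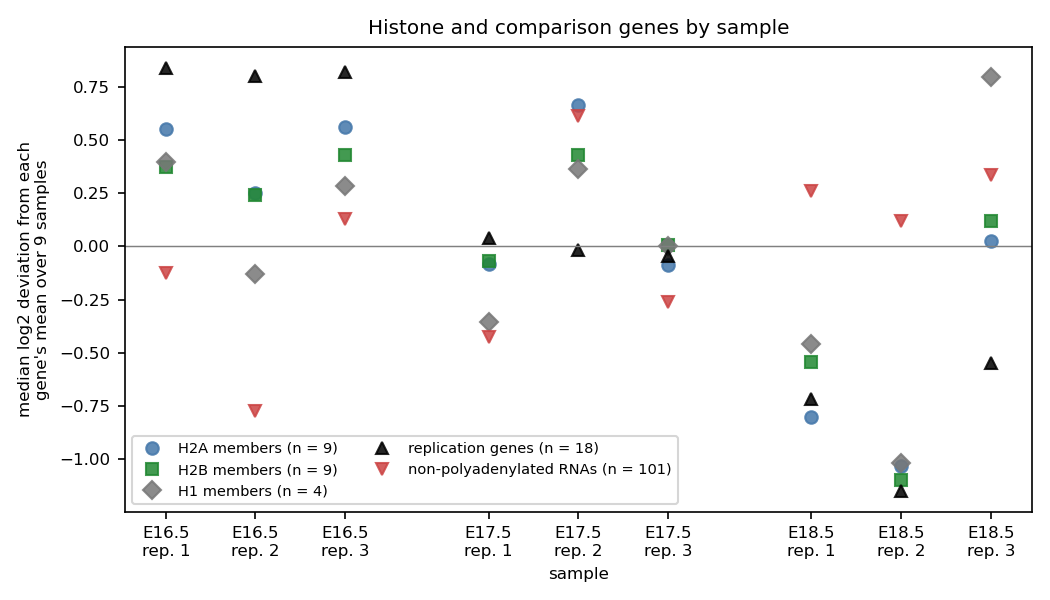
Median over genes of the log2 deviation from each gene's mean over the 9 samples (vertical axis), by sample (horizontal axis), for tested H1, H2A and H2B members, replication genes and RNAs without a poly(A) tail. Replication genes are apart by day, whereas H2A members run from -1.03 to 0.02 among the E18.5 samples and reach 0.66 in E17.5 replicate 2.

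Among the 38 members, 5 H2A genes had an H2B gene close by, 179 to 280 bases away. In this arrangement the genes can share the promoter region between them. The 30 cluster genes not analysed here were left out of this search, so further neighbours may exist. For 3 of the 5 the annotation used gave the strand of both genes, which point away from each other. Both genes were tested in 2 of the 5 pairs, and none of these 4 genes passed. Hist2h2ac had a change of -0.92 (q = 0.11) and Hist2h2be, 191 bases away, one of 0.20 (q = 0.30). Hist1h2ac had a change of -0.45 (q = 0.14) and Hist1h2bc, 239 bases away, one of 0.58 (q = 0.12). In the other 3 pairs (Hist1h2an with Hist1h2bp, Hist1h2aa with Hist1h2ba, and Hist1h2ae with Hist1h2bg) the values of Hist1h2bp, Hist1h2ba and Hist1h2ae lay below the median of every array, so no comparison was made. The pairs were examined after the changes were known.

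Genes that act on cluster histone mRNA fell in part. Of 22 measured genes for its transcription and 3′ end processing, 21 were tested. Between E16.5 and E18.5, 7 were lower and 0 higher, beside 6.21% and 3.77% of all genes tested. The median log2 change was -0.33. Slbp, the protein that binds the histone stem-loop, measured 8.11, 8.14 and 8.19 at E16.5, 7.68, 7.63 and 7.54 at E17.5, and 7.47, 7.08 and 7.22 at E18.5. Its change was -0.89 ± 0.13 (q = 0.010), with samples of the 3 days apart from each other. Npat, the coactivator that sits at histone genes in S phase, had a change of -0.82 ± 0.19 (q = 0.044). The others that fell were the cap-binding protein gene Ncbp1 (-0.87), the exonuclease gene Eri1 (-0.77), the cleavage factor genes Cpsf3 (-0.65) and Cpsf2 (-0.58), and Cstf2 (-0.62). The U7 particle genes Lsm10 (0.05, q = 0.86) and Lsm11 (-0.30, q = 0.22), Casp8ap2 (-0.27, q = 0.30), a scaffold of histone mRNA processing, and the H4 gene factor Hinfp (-0.14, q = 0.55) did not pass. The count of 7 was 3 or 4 without E16.5 replicate 1 or 2 or without any 1 E18.5 sample, and 1 without E16.5 replicate 3. In these fits 1.54% to 4.48% of all genes tested were lower. The count was 4 with a second quantile normalization or with no filter on low values, beside 5.32% and 2.11%. The ordinary test without moderation called 0, as it did over all genes tested.

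Histone chaperones, which carry histones to and from DNA, gave 9 lower and 1 higher of 18, beside 6.21% and 3.77% of all genes tested. Their median log2 change was -0.78. Chaf1b (-1.71) and Chaf1a (-1.42), of the complex that loads histones behind the replication fork, fell with Asf1b (-1.63), Ssrp1 (-1.11), Nasp (-1.05), Supt16 (-1.01), Hat1 (-0.94), Asf1a (-0.84) and Rbbp7 (-0.73). Daxx, a chaperone of the replacement histone H3.3, rose by 1.26 ± 0.21 (q = 0.015). The count of 9 was 5 without E16.5 replicate 3, beside 1.54% of all genes tested. Daxx did not pass without E16.5 replicate 2 or 3, where 1.38% and 1.23% of all genes tested were higher.

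All 18 replication genes were lower at E18.5, beside 6.21% of all genes tested, with a median of -1.64. The helicase genes Mcm2 to Mcm7 had changes from -2.06 (Mcm5) to -1.26 (Mcm4), Prim1 had the largest at -2.32 and Pcna the smallest at -0.83. Gins1, Gins2, Cdc45, Cdc6, Ccne1, Ccne2, Cdk2, Rrm1, Rrm2 and Pola1 lay between, from -1.74 to -0.93. Their median within-day SD at E18.5 was 0.34, beside 0.54 in the histone members. With each sample left out in turn, 12 to 18 of the 18 passed, whereas the histone count ran from 0 to 14, with the lowest replication count without E16.5 replicate 3. In that fit 1.54% of all genes tested were lower.

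Among histone genes outside the clusters, 9 were tested and 4 were lower, beside 6.21% of all genes tested. These were H2afx (-1.43, q = 0.030), the H2A form phosphorylated at DNA breaks, Cenpa (-1.11, q = 0.012), the centromere H3, H2afz (-1.04, q = 0.049) and H2afy (-0.42, q = 0.042). H3f3b had a change of 0.22 (q = 0.19) and H1f0 one of 0.09 (q = 0.92), while H3f3a, with values from 2.00 to 3.46, was not tested. The median over the 9 was -0.69. The count of 4 was 2 without any 1 E18.5 sample, 1 without E16.5 replicate 2 and 0 without E16.5 replicate 1 or 3. In these fits 1.54% to 4.48% of all genes tested were lower. The count was 2 with a second quantile normalization or with the trend and robust settings of eBayes, beside 5.32% and 4.90%. It was 1 with no filter on low values, beside 2.11%. The ordinary test without moderation called 0, as it did over all genes tested.

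Of 101 tested RNAs without a poly(A) tail, 0 were lower and 7 higher, beside 6.21% and 3.77% of all genes tested, with a median of 0.49. At an unadjusted p under 0.05 in limma, 1 was lower and 43 higher, beside 16.9% and 11.1%. All E18.5 samples lay above all E16.5 samples for 42, beside 11.9%, and below them for 0, beside 18.3%. E16.5 replicate 2 was the lowest sample of its day for 98 of the 101. Without it the median was 0.25, with 1 lower and 7 higher, beside 2.52% and 1.38% of all genes tested. The 7 were Snora2b, Snora81, Snord90, Snord23, Snora30, Snord70 and Snora28. The count of 7 was 0 without E16.5 replicate 1, and 1 without E16.5 replicate 3, without E18.5 replicate 1 or 2, or with no filter on low values. In these settings 1.23% to 2.27% of all genes were higher.

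Of 5 lymphatic endothelial markers, 5 exceeded the median of every array, with Pecam1, Flt4, Lyve1 and Prox1 not past the test and Pdpn higher at E18.5. Other markers moved with day too. From E16.5 to E18.5, 3.77% of all genes tested were called higher and 6.21% lower. Without E18.5 replicate 3, 4.18% were called higher and 4.48% lower. The mean log2 value over 8 epithelial markers ran from 5.36 to 6.11 at E16.5 and from 7.65 to 7.80 at E18.5, with 4 of 8 higher, and over 5 mesenchymal markers from 6.18 to 6.75 and from 7.24 to 8.44, with 2 of 5 higher. Over 4 platelet markers it ran from 6.23 to 6.58 at E16.5 and was 8.86, 8.05 and 6.55 in the E18.5 samples, lowest in replicate 3, in which most histone members were highest, with 0 of 4 past the test and 4 of 4 without that sample. The same sample was the lowest of its day for 5 of 5 mesenchymal markers, with a mean of 7.24 beside 8.44 and 8.28, and for 3 of 3 erythroid markers, with 6.48 beside 7.80 and 7.85. It was the highest for 3 and the lowest for 1 of 4 blood endothelial markers, and likewise for 3 and 1 of 5 lymphatic markers. Over 3 erythroid markers the mean ran from 4.97 to 7.39 at E16.5 and from 6.48 to 7.85 at E18.5, with 0 past the test. Of 4 blood endothelial markers Car4 was higher and Plvap lower. Of 4 leukocyte markers, Cd68 exceeded the median of all 9 arrays, with 0 past the test. Their part in the histone values was not tested, and fewer cells that make histone mRNA cannot be told apart from less of it per cell.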

How the data were processed

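Total RNA of 9 samples of sorted PLECs was hybridised to 1 array each. As deposited, the authors' values are log2 RMA values from affy 1.36.1 under R 2.15.1, per Entrez gene. RMA includes a quantile normalization, yet the gene values did not share 1 distribution, with array medians from 3.79 to 3.91. They are not counts, and how precise an estimate can be depends on having 9 arrays. Genes exceeding the median of 1 or more of the 9 arrays went into limma 3.58.1 (R 4.3.3) for a moderated F test over 3 days, adjacent days from the same fit, and E18.5 against E16.5 on their 6 arrays. The threshold was an FDR q under 0.05 (Benjamini-Hochberg over 14096 genes). The fit was tested on simulated data. Each sample pools 2 litters, so p-values measure the spread between pools. Members and lists were chosen with earlier results of these data known. Named with values were members past a test, the 2 largest changes and the 2 highest means of each type, members of opposite sign with an unadjusted p under 0.05, and called genes of the comparison lists. Older symbols are used, with current ones from RefSeq (GRCm38.p6), and 23740 of 25206 genes had a name. Alternatives changed the filter, scaling, weights, moderation, arrays fitted and samples.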

Additional observations from a re-analysis of the deposited data

How the results depend on the processing

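Without a filter on low values, 2 of the 38 members changed over the 3 days and 2 were lower from E16.5 to E18.5, beside 3.56% and 2.11% of all genes. Both of the lower members were H2A genes, with 0 H1 and 0 H2B genes. In the ordinary test without moderation, 0 members changed over the 3 days, beside 2.16% of all genes tested. From E16.5 to E18.5 it called 0 members lower and 0 higher, with 0 H1, 0 H2A and 0 H2B genes lower. Over all genes tested it also called 0 lower and 0 higher. The count of 1 higher became 0 with a filter on the mean, a second quantile normalization and the fit on all 9 arrays. Over all genes tested, 3.94%, 4.26% and 5.24% were higher in these settings. The count of 0 lower at E18.5 than at E17.5 became 1 with arrays centred, a second quantile normalization and array quality weights. Over all genes tested, 0.951%, 0.759% and 0.901% were lower in this step. The labels give replicate numbers but no pairing, and the main fits used none. Of 9 same-numbered pairs 2 correlated above 0.1, from -0.36 to 0.29. Differently numbered pairs were not set beside them, so these values cannot decide whether the numbers pair the samples. With the replicate block 2 members changed over the 3 days, beside 6.51% of all genes tested, and 5 H2B genes were lower, beside 6.02%. With each sample left out in turn, 1 to 13 members changed over the 3 days, 0 to 14 were lower and 0 to 1 higher from E16.5 to E18.5, 0 to 10 were lower from E17.5 to E18.5, 0 to 2 H1, 0 to 6 H2A and 0 to 6 H2B genes were lower, and the median change of the members ran from -0.79 to -0.43. In these fits 4.67% to 9.73% of all genes tested changed over the 3 days. From E16.5 to E18.5, 1.54% to 4.48% were lower and 1.23% to 4.18% higher. From E17.5 to E18.5, 0% to 1.55% were lower. The sign turned, without any call, for Hist4h4, Hist1h1d, Hist1h1c and Hist1h2be in these fits, where Hist4h4 ran from -0.29 to 0.16, Hist1h1d ran from -0.57 to 0.0855, Hist1h1c ran from -0.79 to 0.41 and Hist1h2be ran from -0.59 to 0.0891. The cause of these differences was not tested. Of 265 values of single members in the settings with all samples, 243 kept their side of the threshold, 17 lost a call, 5 gained one and 0 changed sign. Low signal limits the members near the array median, whose changes are uncertain in size.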
